A study of Mus musculus with 21 samples.

Results

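The experiment described here is the knockdown of Hsf1 in mouse fibroblasts that express GCN5. It was chosen by its sample labels as the 6 RNA-seq libraries of that line, out of 21 samples in the series: 3 libraries with control siRNA (siControl) and 3 with siRNA against Hsf1 (siHsf1). Both groups are immortalized mouse embryonic fibroblasts (MEFs) that stably express V5-tagged GCN5, transfected for 2 days with 10 nM siRNA. The labels give the genotype of the siControl samples as Hsf1 WT and that of the siHsf1 samples as Hsf1 KD. They do not name the promoter that drives GCN5, the species of its sequence, or the number of clones behind the line. The matching experiment in MEFs that stably express LacZ, a bacterial enzyme used as a neutral insert, holds another 6 libraries, 3 with siControl and 3 with siHsf1 at the same dose and time. The libraries of a group are called triplicates, and nothing says whether they came from separate cultures, so p-values measure the spread between these libraries. The question the design poses is which genes that need HSF1 in the LacZ line still fall when GCN5 is expressed.

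HSF1 (heat shock factor 1) is a transcription factor that trimerizes under protein-folding stress and binds heat shock elements, which are inverted repeats of nGAAn units, in the promoters of chaperone genes. Chaperones of the HSP90, HSP70, HSP110, HSP40 and small HSP families hold or refold proteins, and HSF1 also supports their expression in growing cells. GCN5, encoded by Kat2a, is a histone acetyltransferase that works within the coactivator complexes SAGA and ATAC, which c-MYC recruits to growth genes such as those of ribosome biogenesis and nucleotide synthesis.

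Gene counts per library were 3.69 to 4.27 M (mega) in the GCN5 line and 7.22 to 8.16 M in the LacZ line, so that depth and line cannot be told apart. A count of 0 allowed up to 0.702 to 0.812 CPM (counts per mega of a library's TMM-scaled total) in a GCN5-line library, at 3 counts; such floors cover counting error only. The median standard error (SE) of a log2 fold change was 0.125 in the GCN5 line and 0.11 in the LacZ line. All 3 markers of the experiment, Hsf1, Hsph1 and Dnajb1, were called lower with siHsf1. Of 12 fibroblast markers 11 passed the filter on low counts and Thy1 was at 0 in every GCN5-line library; the summed level of the 12 was 9960 to 10200 CPM with siControl and 10200 to 10400 CPM with siHsf1. The 7 epithelial markers summed to 31.7 to 41 CPM with siControl and 33 to 37 CPM with siHsf1, with Epcam at 0. No tested marker of fibroblasts (11), epithelium (1), neural cells (3) or skeletal muscle (1) was called in the fit of all 12 libraries. No endothelial or pluripotency marker passed the filter. In a fit of the GCN5 line alone, the fibroblast marker Fn1 was called higher with siHsf1, as were 1.19% of all genes. In bulk RNA, fewer cells of a type and less RNA per cell cannot be told apart.

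The targeted gene was lower in every siHsf1 library. Hsf1 (gene ID 15499, GRCm38 chromosome 15, 76477367 to 76500982) stood at 137, 121 and 138 CPM in the siControl GCN5 libraries and at 67.9, 74.5 and 73.0 CPM in the siHsf1 GCN5 libraries. The groups did not overlap, and the siHsf1 mean was 0.544 times the siControl mean, a log2 fold change of -0.88 ± 0.08 (SE; adjusted p = 8.19e-07, edgeR quasi-likelihood test with Benjamini-Hochberg adjustment). The siControl LacZ libraries had 128, 128 and 134 CPM of Hsf1 and the siHsf1 LacZ libraries had 57.6, 55.4 and 47.8 CPM. The remaining Hsf1 mRNA was thus 0.411 times the control in the LacZ line, and the fall was smaller in the GCN5 line by 0.41 ± 0.11 on the log2 scale (edgeR interaction, adjusted p = 0.0106). The level of Hsf1 that siHsf1 left behind therefore differed between the lines for all comparisons of the lines given here, and its part in them was not tested. Of the other HSF genes tested, Hsf2 stood at 21.8, 24.9 and 26.8 CPM and then 26.2, 27.5 and 23.2 CPM in the GCN5 line, where the groups overlapped, and Hsf5 was too low to test.

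Kat2a, the gene of GCN5, did not pass the test in the GCN5 line and fell in the LacZ line. Its counts stood at 262, 233 and 245 CPM with siControl and 247, 252 and 244 CPM with siHsf1 in the GCN5 line, so the groups overlapped. Kat2a in the LacZ line was at 215, 215 and 219.8 CPM under siControl and at 125, 118 and 130.1 CPM with siHsf1, a log2 fold change of -0.80 (edgeR adjusted p = 1.74e-10). The difference between the lines was 0.81 ± 0.09 (interaction, adjusted p = 2.31e-07). The siControl mean was 247 CPM in the GCN5 line and 217 CPM in the LacZ line; whether reads of the transgene count toward Kat2a is not given in the sources used here. Myc, which encodes c-MYC, was at 129, 108 and 125 CPM under siControl and at 158, 144 and 139 CPM with siHsf1 in the GCN5 line. Every siHsf1 library was above every siControl library, but the log2 fold change of 0.28 ± 0.08 did not pass in the fit of all 12 libraries (edgeR adjusted p = 0.235). It passed when the GCN5 line was fitted alone (0.28 ± 0.07, edgeR adjusted p = 0.0207). Myc fell in the LacZ line, from 130.3, 142 and 147 CPM to 99.4, 89.4 and 88.1 CPM, and its response differed between the lines by 0.88 ± 0.11 (edgeR interaction, adjusted p = 2.43e-06).

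Few genes passed the test for siHsf1 when GCN5 was expressed. Among 12187 genes tested, 12 were called lower (0.0985%) and 8 were called higher (0.0656%) at an adjusted p under 0.05 in a fit of all 12 libraries. The same fit called many in the LacZ line, where 2373 genes were called lower (19.5%) and 2571 were called higher (21.1%). These 2373 genes are called HSF1-dependent below. The size of the changes differed as well: 794 genes had a log2 fold change of at least 0.5 in either direction in the GCN5 line and 2774 in the LacZ line, with median sizes of 0.115 and 0.257. The interaction test, which compares the responses of the lines directly, called 2677 genes (22%). With spike-in scaling 735 genes were called lower (6.03%) and 121 higher (0.993%) in the LacZ line, and the interaction calls numbered 48. The median log2 fold change of all genes in the LacZ line was 0.024 with TMM and -0.349 with spike-in scaling.

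The number of calls in the GCN5 line depended on the fit, while the direction of the 20 genes did not. Fitted on the 6 libraries of the GCN5 line alone, 262 genes were called, 129 lower and 133 higher, and these included all 20. With scaling on the ERCC spike-in RNA only 5 genes were called (0.041%), none of them among the 20, although all 20 kept their sign. The 23 ERCC transcripts used for that scaling had counts equal to 0.199% to 0.3% of a library's gene counts in the GCN5 line. The spread between libraries after that scaling was a biological coefficient of variation of 0.274, against 0.089 after TMM. Leaving out siControl GCN5 libraries 1, 2 and 3 in turn gave 7, 5 and 6 calls, and leaving out siHsf1 GCN5 libraries 1, 2 and 3 gave 12, 11 and 4. Without siControl LacZ library 2 the count was 98, and without siHsf1 LacZ library 2 it was 31. Ccnd3, Hsf1, Hsph1 and Ptgs2 kept their call in each of these 12 omissions; the other 16 genes lost it in at least 1.

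Of the 12 genes called lower, 11 were HSF1-dependent in the LacZ line, which is 91.7% of the 12 and 0.464% of the HSF1-dependent genes. Over all genes tested, 19.5% were HSF1-dependent and 0.0985% were called lower in the GCN5 line. The contrasts of the lines share no library, though the fit shares its estimate of the spread. The 12 comprise Hsf1 itself, 6 chaperones or co-chaperones (Hsph1, Dnajb1, Hsp90aa1, Hsp90ab1, Fkbp4 and Ahsa1), the cyclin gene Ccnd3, and Ccndbp1, Zbed3, Dazap2 and Habp4. Habp4, which encodes an RNA- and hyaluronan-binding protein, was the exception that did not pass in the LacZ line.

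**Figure D1:**
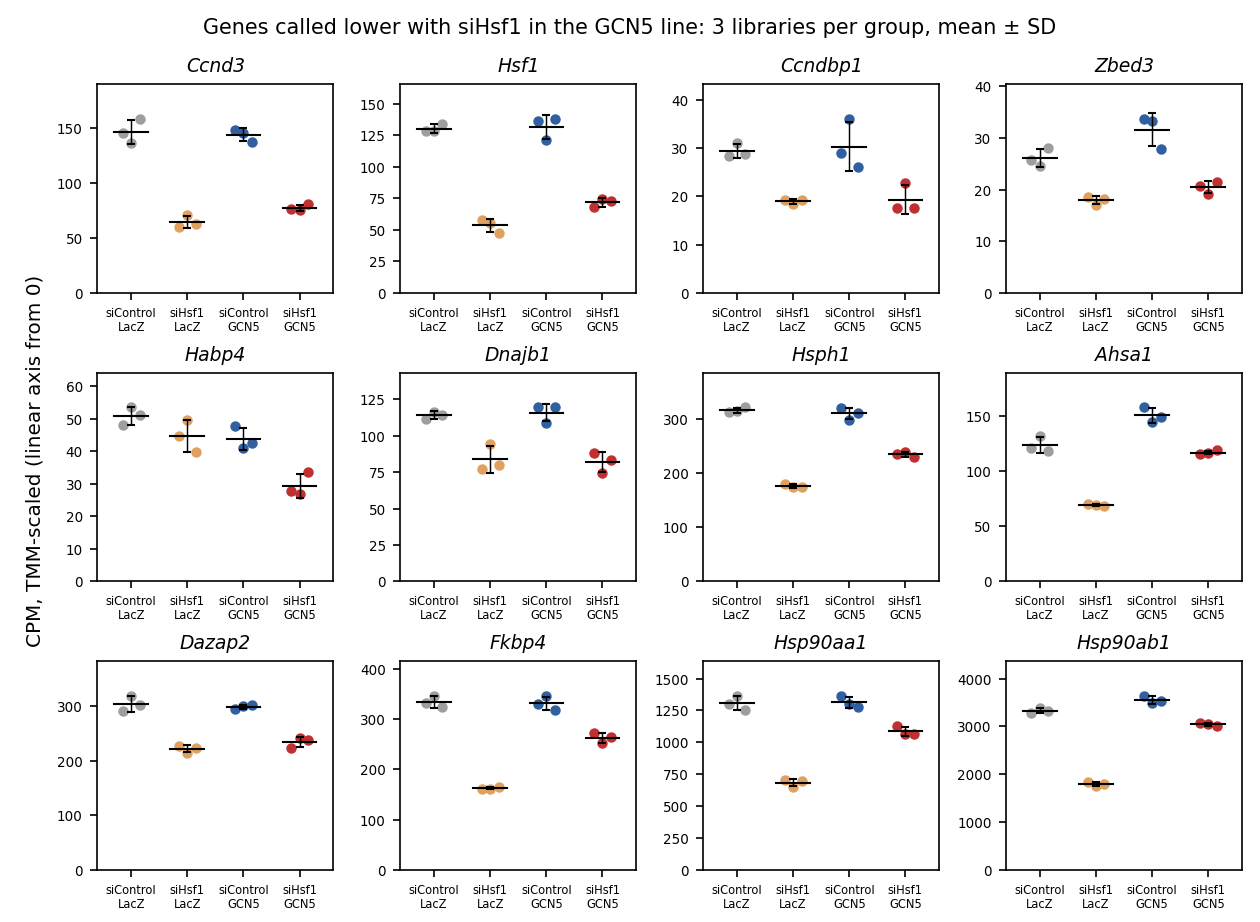
Levels in CPM (TMM-scaled, linear axes from 0) of the 12 genes called lower with siHsf1 in the GCN5 line, in each of 4 groups; points are libraries, bars the mean ± SD of 3. In the GCN5 line (blue and red) every siHsf1 library lies below every siControl library in each panel, as in 9.73% of all genes tested. The 12 genes were chosen by a test on these same libraries. The siHsf1 libraries of Hsf1, Ccnd3, Zbed3, Hsph1, Hsp90aa1, Hsp90ab1, Fkbp4 and Ahsa1 sit higher in the GCN5 than in the LacZ line. The siControl libraries of Hsp90ab1 and Ahsa1 also sit higher in the GCN5 line.

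HSP90, the chaperone of kinases and steroid receptors, had the most abundant mRNAs among the genes that fell. Hsp90ab1 (gene ID 15516, chromosome 17, 45567778 to 45573261), the constitutive cytosolic form, stood at 3638, 3486 and 3534 CPM under siControl and at 3068, 3047 and 3015 CPM with siHsf1. The groups did not overlap, but the difference was small, 0.857 times the control (log2 -0.22 ± 0.05, edgeR adjusted p = 0.0477). The LacZ line showed a fall to 0.54 times, and the 2 responses differed (edgeR interaction 0.67 ± 0.07, adjusted p = 6.87e-08). Hsp90aa1 (gene ID 15519, chromosome 12, 110691036 to 110696395), the stress-inducible form, went from 1365, 1297 and 1279 CPM to 1127, 1064 and 1065 CPM, 0.826 times (log2 -0.28 ± 0.05, edgeR adjusted p = 0.0249), against 0.523 times in the LacZ line. Per length, the authors' FPKM put Hsp90ab1 at 1390 and Hsp90aa1 at 452 in the siControl GCN5 libraries. The call of Hsp90ab1 was lost with a replicate block and at a stricter count filter.

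The HSP90 partners that were called moved by a like amount. Fkbp4 (gene ID 14228, chromosome 6, 128430107 to 128438631), a peptidyl-prolyl isomerase of steroid receptor complexes, stood at 331, 345 and 318 CPM with siControl and 272, 253 and 265 CPM with siHsf1. Its log2 fold change was -0.33 ± 0.06 (edgeR adjusted p = 0.0103), against -1.04 in the LacZ line. Ahsa1 (gene ID 217737, chromosome 12, 87266484 to 87273998), which activates the HSP90 ATPase, went from 158, 145 and 149.8 CPM to 116, 116 and 119 CPM (log2 -0.37 ± 0.07, edgeR adjusted p = 0.0166), against -0.84 in the LacZ line. In both genes the siHsf1 libraries lay below all siControl libraries, as in 9.73% of all genes tested. The fall was smaller in the GCN5 line, by 0.71 ± 0.08 for Fkbp4 and 0.47 ± 0.09 for Ahsa1 (edgeR interaction, adjusted p = 7.18e-07 and 6.60e-04).

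Hsph1 and Dnajb1 serve HSP70. Hsph1 (gene ID 15505, chromosome 5, 149616843 to 149637155) encodes HSP110, a nucleotide exchange factor of HSP70. It stood at 320.2, 299 and 311 CPM under siControl and at 235, 239 and 229 CPM with siHsf1, 0.756 times the control (log2 -0.40 ± 0.06, edgeR adjusted p = 7.97e-04). Its fall in the LacZ line was 0.44 ± 0.08 deeper on the log2 scale (edgeR interaction, adjusted p = 2.18e-04). Dnajb1 (gene ID 81489, chromosome 8, 83608175 to 83612653) encodes HSP40, which delivers substrates to HSP70. It stood at 119, 109 and 119 CPM with siControl and 88.1, 74.3 and 83.1 CPM with siHsf1, a log2 fold change of -0.50 ± 0.09 (edgeR adjusted p = 0.00844). Here the value in the LacZ line was -0.44, and the difference of -0.06 ± 0.12 did not pass the interaction test (edgeR adjusted p = 0.768). Dnajb1 was thus the member of the 6 called chaperones whose response was not shown to differ between the lines.

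Among the 12 genes called lower the largest fall was that of Ccnd3 (gene ID 12445, chromosome 17, 47505051 to 47599689), which encodes cyclin D3, a partner of CDK4 and CDK6 in G1 phase. It stood at 149, 146 and 138 CPM with siControl and 76.8, 75.0 and 80.5 CPM with siHsf1, 0.538 times the control (log2 -0.89 ± 0.08, edgeR adjusted p = 6.76e-07). The fall in the LacZ line was to 0.44 times, and the difference of 0.29 ± 0.11 did not pass (edgeR interaction, adjusted p = 0.0589). Ccndbp1 (gene ID 17151), which encodes a cyclin D-binding protein, stood at 28.9, 36.0 and 26.0 CPM and then 17.5, 22.7 and 17.6 CPM. Its log2 fold changes of -0.65 ± 0.14 in the GCN5 line and -0.64 in the LacZ line lay close together (edgeR adjusted p = 0.0477 in the GCN5 line, interaction 0.956).

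Zbed3 (gene ID 72114), whose protein binds axin in Wnt signalling, stood at 33.7, 33.3 and 27.9 CPM with siControl and 20.6, 19.2 and 21.5 CPM with siHsf1 (log2 -0.63 ± 0.12, edgeR adjusted p = 0.0249), against -0.55 in the LacZ line. Dazap2 (gene ID 23994) stood at 296, 299.7 and 302 CPM and then 224, 242 and 238 CPM (log2 -0.35 ± 0.06, edgeR adjusted p = 0.00844), against -0.46. For Zbed3 and Dazap2 the interaction did not pass (edgeR adjusted p = 0.772 and 0.393). Habp4 (gene ID 56541) stood at 47.7, 41.2 and 42.6 CPM and then 27.8, 26.8 and 33.7 CPM, a log2 fold change of -0.57 ± 0.12 (edgeR adjusted p = 0.038); in the LacZ line it was -0.19 (adjusted p = 0.127), and the difference did not pass either (interaction, adjusted p = 0.0745).

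The 12 genes thus divided by the test of the difference. Hsf1 and 5 chaperones, namely Hsph1, Ahsa1, Fkbp4, Hsp90aa1 and Hsp90ab1, fell less in the GCN5 than in the LacZ line. Ccnd3, Ccndbp1, Zbed3, Dazap2, Dnajb1 and Habp4 were not shown to differ. As the 12 were chosen by their fall in the GCN5 line, the interaction shares those libraries with the choice.

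**Figure D2:**
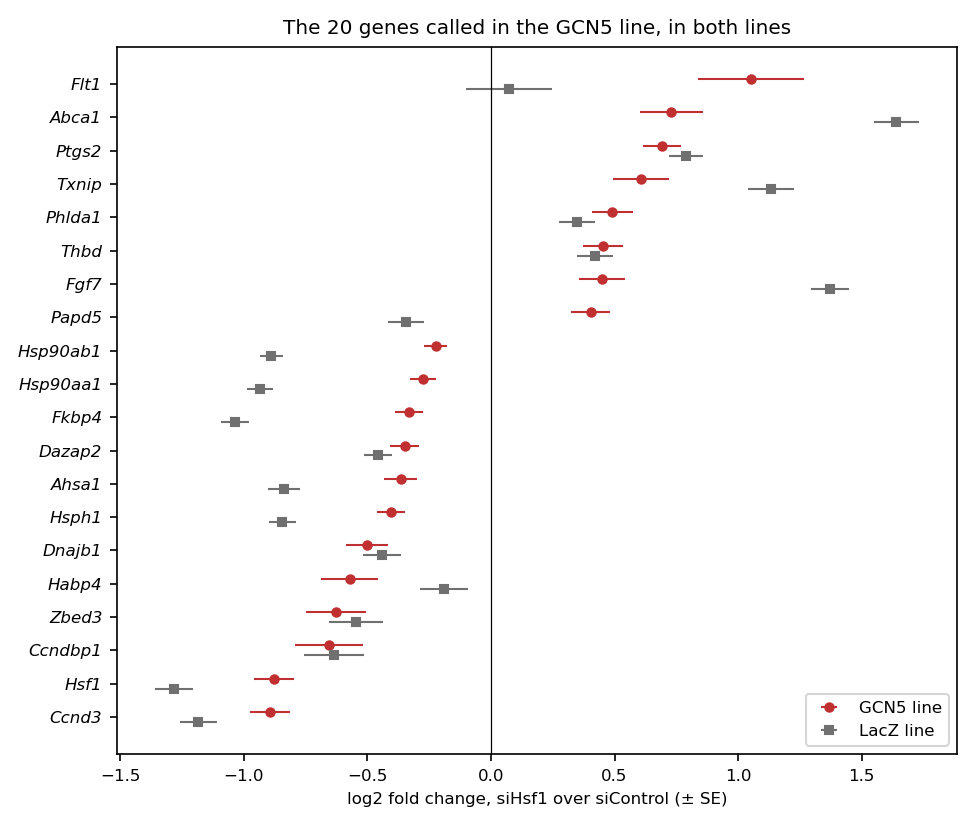
Log2 fold changes of siHsf1 over siControl (x axis, ± SE from the edgeR fit) for the 20 genes called in the GCN5 line, with the GCN5 line as red circles and the LacZ line as grey squares. The symbols of Ccndbp1, Zbed3, Dnajb1, Dazap2, Ptgs2, Phlda1 and Thbd lie close together, those of the HSP90 genes, Fkbp4, Abca1 and Fgf7 lie apart, and those of Papd5 lie on opposite sides of 0.

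Promoter sequence from RefSeq (GRCm38.p6) was at hand for 9 of the 12 genes called lower and 6 of the 8 called higher; Hsf1, Hsp90aa1, Hsp90ab1, Phlda1 and Thbd had no entry. The 250 bases before each annotated start were searched on both strands for a heat shock element of 3 units (GAANNTTCNNGAA) and for its 2-unit forms, GAANNTTC and TTCNNGAA, both of which the 3-unit form contains. The stretches that hold a match are shown because HSF1, the factor knocked down, binds such units. Whether it binds at these genes was not tested. The match is in capitals, with up to 20 bases on each side, read 5′ to 3′ on the strand of the gene.
Ccnd3, chr17:47593262-47593314, plus strand, 3-unit match: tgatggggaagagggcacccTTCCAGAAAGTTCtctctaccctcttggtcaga
Hsph1, chr5:149636342-149636389, minus strand, 2-unit match: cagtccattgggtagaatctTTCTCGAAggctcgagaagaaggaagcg
Fkbp4, chr6:128438780-128438827, minus strand, 2-unit match: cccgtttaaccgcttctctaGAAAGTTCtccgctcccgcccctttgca
Zbed3, chr13:95324575-95324610, plus strand, 2-unit match: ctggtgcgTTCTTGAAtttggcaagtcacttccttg
The 3-unit form was found in 1 of the 9 genes called lower (Ccnd3, at an internal start of the gene), in 0 of the 6 called higher, and in 0.444% of the 9232 tested genes with a promoter. GAANNTTC was found in 2 of the 9 (Ccnd3 and Fkbp4) against 5.82% of tested genes, and TTCNNGAA in 3 of the 9 (Ccnd3, Hsph1 and Zbed3) against 6.96%. A gene was counted when any of its annotated starts held a match. The Zbed3 match was also at an internal start, and the first starts of Ccnd3 and Zbed3 held none. Neither 2-unit form was in the 6 genes called higher. The E-box CACGTG, the sequence that c-MYC and its partner MAX prefer, was in 2 of the 9 (Hsph1 and Dazap2) and 1 of the 6 (Abca1), against 10.1% of tested genes. Dnajb1 and Ahsa1 had no match to a heat shock element in these windows, which says only that these letters are not there.

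The 8 genes called higher were Flt1, Abca1, Ptgs2, Txnip, Phlda1, Thbd, Fgf7 and Papd5. Of these, 6 of 8 (75%) were also called higher in the LacZ line, beside 21.1% of all genes tested. Ptgs2 (gene ID 19225, chromosome 1, 150100031 to 150108234), which encodes the prostaglandin synthase COX-2, stood at 89.8, 84.5 and 77.7 CPM under siControl and at 128, 139 and 140.4 CPM with siHsf1. That is 1.62 times the control (log2 0.69 ± 0.08, edgeR adjusted p = 2.00e-05), and the LacZ line gave 0.79 (edgeR interaction, adjusted p = 0.559). Phlda1, which encodes a pleckstrin-homology protein, went from 49.6, 46.3 and 47.3 CPM to 66.7, 65.9 and 68.6 CPM (log2 0.49 ± 0.08, edgeR adjusted p = 0.00844). Thbd, the gene of thrombomodulin, went from 54.5, 56.3 and 55.8 CPM to 76.5, 75.0 and 76.8 CPM (log2 0.45 ± 0.08, edgeR adjusted p = 0.0115). The responses of Ptgs2, Phlda1 and Thbd were not shown to differ between the lines, where the LacZ values of the last 2 were 0.35 and 0.42.

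Abca1, Txnip and Fgf7 rose in both lines and rose more in the LacZ line. Abca1 (gene ID 11303), the exporter of cholesterol to apolipoproteins, went from 15.9, 16.8 and 16.3 CPM to 25.0, 29.1 and 27.4 CPM, 1.66 times (log2 0.73 ± 0.13, edgeR adjusted p = 0.00875), against 3.12 times in the LacZ line. Txnip, the thioredoxin-interacting protein that restrains glucose uptake, went from 37.2, 30.3 and 31.2 CPM to 44.4, 53.8 and 52.4 CPM (log2 0.61 ± 0.11, edgeR adjusted p = 0.0166), against 1.13. Fgf7, a growth factor that fibroblasts make for epithelia, went from 55.3, 54.4 and 45.3 CPM to 75.3, 68.5 and 67.9 CPM (log2 0.45 ± 0.09, edgeR adjusted p = 0.0477), against 1.37. In all 3 genes every siHsf1 library lay above every siControl library, as in 9.13% of all genes tested. The differences between the lines were -0.91, -0.53 and -0.92 for Abca1, Txnip and Fgf7 (edgeR interaction, adjusted p = 1.38e-04, 0.0108 and 5.10e-06).

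Flt1 and Papd5 rose in the GCN5 line without a rise in the LacZ line. Flt1 (gene ID 14254, chromosome 5, 147562196 to 147726005), a VEGF receptor, stood at 6.20, 5.96 and 3.87 CPM with siControl and 11.5, 10.4 and 11.5 CPM with siHsf1, the lowest level among the 20 genes (log2 1.05 ± 0.21, edgeR adjusted p = 0.038). Its siControl GCN5 libraries were the low group: the LacZ line stood at 9.28 to 9.75 CPM with siControl and 8.12 to 11.6 CPM with siHsf1 (interaction 0.98 ± 0.28, adjusted p = 0.0123). Papd5 (gene ID 214627, Tent4b in RefSeq), a non-canonical poly(A) polymerase, went from 74.4, 75.3 and 77.9 CPM to 109, 97.0 and 94.6 CPM (log2 0.40 ± 0.08, edgeR adjusted p = 0.0258). In the LacZ line Papd5 fell (log2 -0.34, edgeR adjusted p = 4.65e-04), and the difference of 0.75 ± 0.11 passed the interaction test (adjusted p = 1.35e-05). It was the 1 gene of the 20 that was called in opposite directions.

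**Figure D3:**
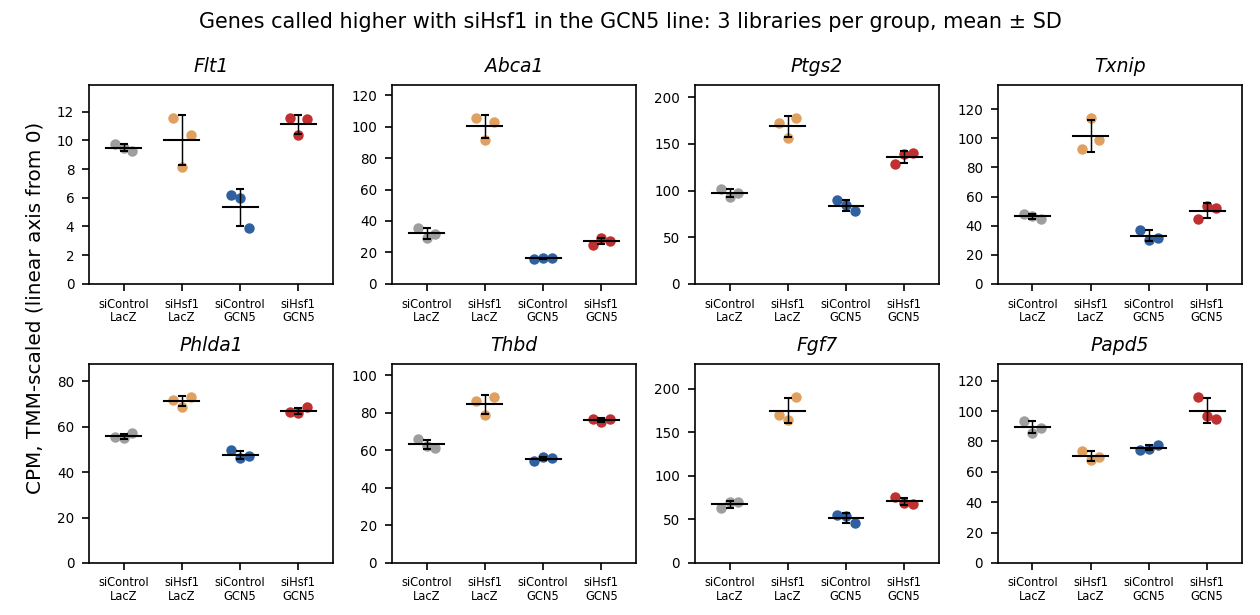
Levels in CPM (TMM-scaled, linear axes from 0) of the 8 genes called higher with siHsf1 in the GCN5 line, in each of 4 groups; points are libraries, bars the mean ± SD of 3. The siControl GCN5 libraries of Flt1 lie at 3.87 to 6.20 CPM, below all other libraries of that panel, and Papd5 goes down in the LacZ line and up in the GCN5 line.

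The HSF1-dependent genes as a whole lay near 0 when GCN5 was expressed. Their median log2 fold change in the GCN5 line was -0.037, against -0.0045 over all genes tested, and 62.5% of them lay below 0, against 51.1% of all genes. Measured in each siHsf1 GCN5 library against the siControl mean, the median was -0.040, -0.031 and -0.032 in libraries 1, 2 and 3, so all 3 libraries lay on the same side of 0. At an unadjusted p under 0.05, 8.93% of the HSF1-dependent genes were lower and 2.11% higher, beside 5.24% and 4.41% of all genes tested. In 17.5% of them every siHsf1 GCN5 library lay below every siControl GCN5 library, beside 9.73% of all genes tested. With spike-in scaling and the genes that it calls lower in the LacZ line, the median was -0.102, and the median of all genes moved to -0.039.

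The depth of the fall in the LacZ line did not order the median values in the GCN5 line. The share of genes called lower there rose with depth, on few genes, while broader shares did not. The 157 genes with a LacZ log2 fold change of -1 or lower had a GCN5-line median of -0.020, the 869 genes between -1 and -0.5 had -0.066, and the 1347 genes above -0.5 had -0.029. Of these groups 3, 6 and 2 genes were called lower in the GCN5 line. That is 1.91%, 0.69% and 0.148% of them, beside 0.0985% of all genes tested. These shares rest on few genes, and the first group includes Hsf1 itself. At an unadjusted p under 0.05, 5.73%, 10.7% and 8.17% of the groups were lower, beside 5.24% of all genes tested. Every siHsf1 GCN5 library lay below every siControl GCN5 library in 12.7%, 19.2% and 16.9% of them, beside 9.73% of all genes tested. The interaction was called for 1283 of the 2373 genes, each with the smaller fall or a rise in the GCN5 line; as the genes were chosen by their fall in the LacZ libraries, which the interaction also uses, this count is a description.

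**Figure D4:**
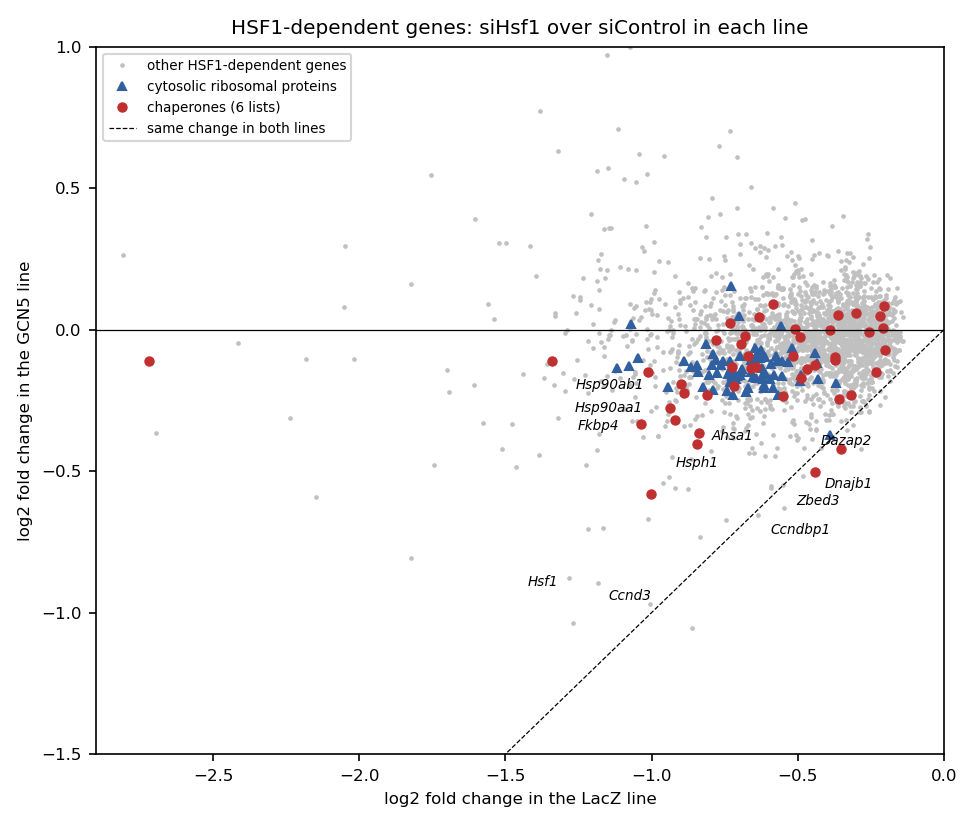
Log2 fold changes of siHsf1 over siControl in the LacZ line (x axis) and the GCN5 line (y axis) for 2371 of the 2373 HSF1-dependent genes, with chaperones as red circles and cytosolic ribosomal proteins as blue triangles; 2 genes lie outside the axes. Most points lie near 0 on the y axis whatever their x value, and Dnajb1, Ccndbp1 and Zbed3 lie near the dashed line of equal change.

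The 10 protein-coding genes with the deepest fall in the LacZ line were Fkbp5, Reep6, Srp54b, Gm8210, Eda2r, Gm3776, Ube2cbp, Dusp9, Psrc1 and Ppl, with LacZ log2 fold changes from -2.72 for Fkbp5 to -1.60 for Ppl, and none was called in the GCN5 line, where 0.0985% of all genes were called lower. The SE in the GCN5 line was 0.88 for Fkbp5 and 0.62 for Srp54b, so that these 2 values are wide. Eda2r, a receptor of the TNF receptor family, was at 15.4, 13.3 and 13.3 CPM with siControl and 15.8, 14.9 and 13.6 CPM with siHsf1 in the GCN5 line, where the groups overlapped (log2 0.08 ± 0.17). Psrc1, a spindle-associated protein, was at 21.6, 19.5 and 22.4 CPM and then 18.7, 17.2 and 19.4 CPM, lower in each siHsf1 library (log2 -0.20 ± 0.14, edgeR adjusted p = 0.658). The other values in the GCN5 line ran from -0.59 for Gm8210 to 0.39 for Ppl. Srp54b, Gm8210 and Gm3776 resemble other genes in sequence, so that the authors' counting could split their reads.

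Chaperones outside the 6 called genes were mostly lower without passing the test. Over 6 lists of chaperones, 73 of 80 members passed the filter; Hspa1a, Hspa1b, Hspa12a, Dnaja4, Hspb2, Hspb7 and Pfdn6 did not. In the GCN5 line 6 of the 73 were called lower (beside 0.0985% of all genes tested) and 0 higher. At an unadjusted p under 0.05, 22 were lower and 1 was higher, beside 5.24% and 4.41% of all genes tested. The median log2 fold change was -0.096, against -0.0045 for all genes tested, and 54 lay below 0, beside 51.1% of all genes. In the LacZ line 45 of the 73 were called lower and 2 higher, beside 19.5% and 21.1% of all genes tested, with a median of -0.36. With spike-in scaling the median in the GCN5 line was -0.12, and only Hspa4l was called.

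Among the families, HSP90 and its co-chaperones held the most calls. Of 14 genes 4 were called lower, beside 0.0985% of all genes tested, and 13 lay below 0, beside 51.1%. Their median was -0.20, against -0.68 in the LacZ line. The summed level of the 14 was 6963, 6765 and 6743 CPM with siControl and 5889, 5772 and 5796 CPM with siHsf1, with no overlap. Stip1, the adaptor of HSP70 and HSP90, had a log2 fold change of -0.23 ± 0.05 (edgeR adjusted p = 0.0847), and Cdc37, the kinase-loading co-chaperone, had -0.03 ± 0.07. The HSP70 and HSP110 list had 1 call in 10, Hsph1, with a median of -0.15. Hspa8, the constitutive HSP70, was at 2747, 2684 and 2651 CPM under siControl and at 2377, 2358 and 2301 CPM with siHsf1 (log2 -0.20 ± 0.05). Every siHsf1 library lay below every siControl library, as in 9.73% of all genes tested, yet the change did not pass (edgeR adjusted p = 0.105). In the LacZ line Hspa8 fell by 0.72 on the log2 scale.

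Hspa4l, a relative of HSP110, had the lowest value of all 73. It was at 12.1, 14.1 and 10.8 CPM in siControl and at 1.20, 2.27 and 1.40 CPM in siHsf1 GCN5 libraries, 0.132 times the control. In the fit of 12 libraries the log2 fold change of -2.92 ± 0.88 did not pass (edgeR adjusted p = 0.394). It passed with spike-in scaling (adjusted p = 1.92e-06) and in the fit of the GCN5 line alone (-2.91 ± 0.30, adjusted p = 3.96e-08). In the LacZ line Hspa4l was uneven within groups, at 9.88, 9.21 and 1.86 CPM with siControl and 2.07, 7.53 and 1.46 CPM with siHsf1. These libraries enter the fit of 12 libraries and the interaction, which did not pass (edgeR adjusted p = 0.264).

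The other families held 1 call among them, where 0.0985% of all genes tested were called lower. In the HSP40 list of 15 genes Dnajb1 was called and the median was -0.015. The small HSP and BAG list had 0 calls in 10 and a median of -0.094. Its member Hspb1 (HSP27) was at 36.1, 39.3 and 34.0 CPM and then 26.2, 27.3 and 19.9 CPM, a log2 fold change of -0.58 ± 0.13 (edgeR adjusted p = 0.0843), against -1.0 in the LacZ line. Bag3, a partner of HSP70 in autophagy, had -0.05 ± 0.11 in the GCN5 line and -0.02 in the LacZ line. The mitochondrial chaperones had 0 calls in 11 and a median of -0.009; Hspd1 (HSP60) had the deepest fall of the 11 in the LacZ line, -1.34, and in the GCN5 line it stood at 988, 961 and 1003 CPM and then 917, 902 and 918 CPM (log2 -0.11 ± 0.06, edgeR adjusted p = 0.534). Its partner Hspe1 (HSP10) had -0.32 ± 0.08 (adjusted p = 0.165). The 13 genes of the TRiC ring and prefoldin had 0 calls, a median of -0.093 in the GCN5 line and one of -0.64 in the LacZ line.

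Fitted on the GCN5 line alone, more chaperones passed, against a background of 1.15% of 11177 genes called lower. A fit of the line alone, added for the lists after the data were seen, called 19 of the 73 chaperones lower and 0 higher. To the 6 it added Ahsa2, Stip1, Cacybp, Hspa8, Hspa4l, St13, Dnaja1, Hspb1, Cryab, Serpinh1, Hspe1, Cct3 and Cct5. Their log2 fold changes in that fit included -0.20 ± 0.03 for Hspa8, -0.23 ± 0.04 for Stip1, -0.24 ± 0.04 for Serpinh1, the collagen chaperone, and -0.40 ± 0.08 for Cryab, a small HSP that did not pass in the LacZ line. The LacZ line fitted alone gave 2264 genes lower (18.4%) and 2235 higher (18.2%) of 12307. With each line fitted alone, 70 genes were lower in both, which is 54.3% of the 129 genes lower in the GCN5 line and 3.13% of the 2234 genes lower in the LacZ line that could be tested. Another 13 of the 129 were higher in the LacZ line, and 43 of the 133 genes higher in the GCN5 line (32.3%) were higher in both, while 14 of the 133 were lower in the LacZ line.

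Growth genes of the c-MYC programme, which fell in the LacZ line, gave no call in the GCN5 line in the fit of 12 libraries, where 0.0985% of all genes were called lower, so that a count of 0 is near the background and the medians describe these lists. Of 43 ribosome biogenesis genes 40 fell in the LacZ line, beside 19.5% of all genes tested, with a median of -0.74. In the GCN5 line 0 of the 43 were called and their median was -0.0004. The summed level of these 43 genes was 7738, 7368 and 7334 CPM with siControl and 7437, 7508 and 7260 CPM with siHsf1, so the groups overlapped. Of 59 genes of the MYC targets V2 list 51 fell in the LacZ line and 0 were called in the GCN5 line, where the median was -0.020. The 28 nucleotide synthesis genes had 27 falls in the LacZ line and 0 calls in the GCN5 line. Cad, the enzyme that starts pyrimidine synthesis, was at 304, 283 and 278 CPM and then 305, 313 and 315 CPM, with log2 fold changes of 0.11 ± 0.08 in the GCN5 line and -0.98 in the LacZ line (edgeR interaction, adjusted p = 1.44e-07).

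Of the 10 tested members of the MYC network, the partners and antagonists of c-MYC, 0 were called in the fit of 12 libraries. Beside it, 0.0985% of all genes tested were called lower and 0.0656% higher. The line alone called Myc higher, which stands in this list and in MYC targets V2, and called lower Hspe1 of MYC targets V2 and Nme2, a nucleoside diphosphate kinase among the classical MYC targets (-0.18 ± 0.04, edgeR adjusted p = 0.0155). Of all genes in the fit of the line alone, 1.15% were called lower and 1.19% higher. Classical MYC targets had 26 falls in 30 genes in the LacZ line, beside 19.5% of all genes tested. In the GCN5 line they had 0 calls in the fit of 12 libraries and a median of -0.018. Cdk4, the G1 kinase that cyclin D3 activates, stood at 438, 447 and 444 CPM and then 412, 404 and 411 CPM, a log2 fold change of -0.11 ± 0.06 (edgeR adjusted p = 0.529). Mitotic genes had 30 falls in 32 genes in the LacZ line, beside the same 19.5%, and 0 calls in the GCN5 line, with medians of -0.58 and -0.015. Rrm2, a subunit of ribonucleotide reductase, was higher in every siHsf1 GCN5 library, 264, 271 and 257 CPM against 232, 243 and 249.8 CPM, without passing (log2 0.13 ± 0.06, edgeR adjusted p = 0.509). In the LacZ line Rrm2 fell by 0.57 on the log2 scale.

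The 79 cytosolic ribosomal protein genes stood apart from these lists in 1 respect. None was called in the fit of 12 libraries, but 73 lay below 0, beside 51.1% of all genes tested. In 48 every siHsf1 GCN5 library lay below every siControl GCN5 library, beside 9.73% of all genes tested. The median was -0.13, against -0.67 in the LacZ line, where 74 fell, beside 19.5% of all genes tested. Their summed level was 47830, 52370 and 48890 CPM in siControl and 45320, 45570 and 45940 CPM in siHsf1 GCN5 libraries, with siControl library 2 the highest. Rpl13a stood at 555, 587 and 561 CPM and then 480.1, 483 and 488 CPM, a log2 fold change of -0.23 ± 0.08 (edgeR adjusted p = 0.37). In the fit of the line alone 23 of the 79 were called lower and 0 higher, Rpl13a among the 23 (edgeR adjusted p = 0.00113). That fit called 1.15% of all its genes lower and 1.19% higher. Many of these genes have processed copies in the genome, so that the authors' counting could split their reads.

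**Figure D5:**
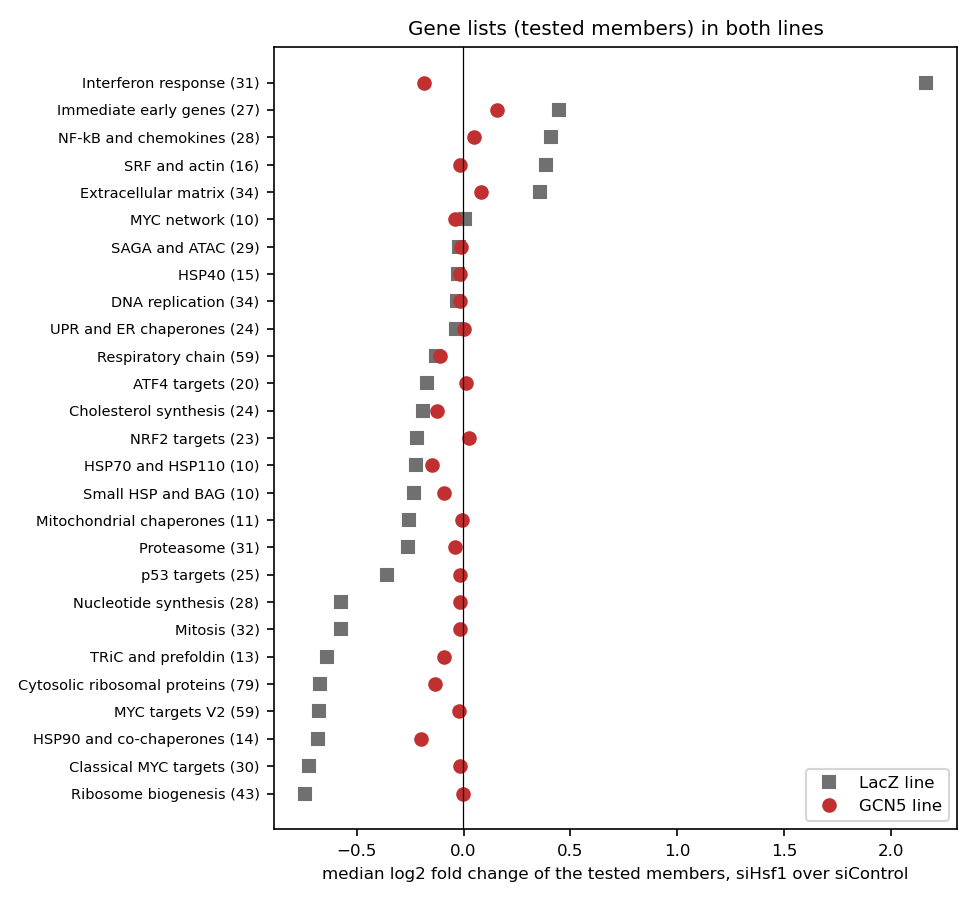
Median log2 fold change of siHsf1 over siControl (x axis) of the tested members of 27 gene lists (y axis, number of tested members in brackets), in the LacZ line (grey squares) and the GCN5 line (red circles). In the GCN5 line the medians run from -0.20 for HSP90 and co-chaperones to 0.16 for immediate early genes, and the interferon response has 2.16 in the LacZ line and -0.19 in the GCN5 line.

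Interferon-response genes, which are induced by foreign nucleic acid and by interferon, rose in the LacZ line and gave no call in the GCN5 line. In the LacZ line 30 of 31 were called higher, beside 21.1% of all genes tested, with a median log2 fold change of 2.16. In the GCN5 line 0 were called, 25 lay below 0 and the median was -0.19. Of all genes tested, 0.0985% were called lower and 0.0656% higher in the GCN5 line, so a count of 0 is near the background. There 51.1% of all genes lay below 0. The interaction was called for 29 of the 31 interferon-response genes, beside 22% of all genes tested. Bst2 (tetherin), which holds virus particles at the cell surface, stood at 89.6, 107 and 103 CPM with siControl and 74.4, 72.8 and 65.1 CPM with siHsf1 in the GCN5 line. That difference of -0.50 ± 0.11 did not pass in the fit of 12 libraries (edgeR adjusted p = 0.109) and passed in the line alone (adjusted p = 1.35e-04), while in the LacZ line Bst2 rose by 1.29. Ifi27 had -0.39 ± 0.09 in the GCN5 line (edgeR adjusted p = 0.1) and 0.92 in the LacZ line. It too was called lower in the fit of the GCN5 line alone.

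Immediate early genes, which growth signals induce within the hour, lay mostly above 0. Of 27 tested 1 was called higher (Ptgs2), beside 0.0656% of all genes tested, and 8 lay below 0, beside 51.1%. The median of the 27 was 0.16, against 0.44 in the LacZ line, where 18 rose, beside 21.1% of all genes tested. Their summed level was 2185, 2228 and 2157 CPM with siControl and 2370.0, 2389 and 2507 CPM with siHsf1, without overlap. Egr1, a zinc-finger factor, was at 251, 232 and 222 CPM and then 356, 345 and 326 CPM (log2 0.54 ± 0.11, edgeR adjusted p = 0.0927). Fosl2, a subunit of AP-1, was at 91.98, 85.0 and 88.2 CPM and then 111, 115 and 114 CPM (log2 0.36 ± 0.08, edgeR adjusted p = 0.1). The fit of the line alone called Egr1, Fosl2, Ptgs2, Dusp5 and Klf6 higher, and none of the list lower, beside 1.19% of all genes called higher.

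Other lists gave 0 calls in the fit of 12 libraries, near the background of 0.0985% of all genes tested called lower and 0.0656% higher. Of all genes tested, 51.1% lay below 0. The fit of the line alone called 1.15% of all its genes lower and 1.19% higher. Of 34 extracellular matrix genes 9 lay below 0 with a median of 0.08, and the line alone called Fn1, Fbn1 and Mmp9 higher. Of 59 respiratory chain genes 56 lay below 0 with a median of -0.11, close to the -0.13 of the LacZ line; Ndufa3, a subunit of complex I, stood at 48.3, 61.7 and 60.2 CPM and then 42.2, 45.0 and 41.9 CPM (log2 -0.40 ± 0.11, edgeR adjusted p = 0.199), and passed in the line alone (adjusted p = 0.0268). Of 24 cholesterol synthesis genes 20 lay below 0 with a median of -0.12. The p53 targets, NRF2 targets, ATF4 targets, chaperones of the endoplasmic reticulum, proteasome, DNA replication, SRF and actin, NF-kB and SAGA and ATAC lists had medians from -0.039 for the proteasome to 0.051 for NF-kB and chemokines, and none of their members was called in the fit of 12 libraries. The line alone called higher Plk2, a p53 target (0.27 ± 0.05), Txnrd1, the NRF2 target that encodes thioredoxin reductase (0.21 ± 0.04), and Cxcl1, a chemokine of the NF-kB list (0.28 ± 0.05). It called lower Pdia3, a disulfide isomerase of the endoplasmic reticulum (-0.14 ± 0.04), and Tpm1, a tropomyosin (-0.13 ± 0.03). The ATF4, cholesterol synthesis, proteasome, DNA replication and SAGA and ATAC lists had 0 calls in that fit too.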

How the data were processed

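RNA of the 12 libraries was counted by the authors into 1 deposited table of whole-number counts per gene (41608 genes) that also holds 92 ERCC transcripts; the authors also deposited FPKM values, used here for levels per length alone. Per the submitters' processing notes, HISAT2 and DESeq2 were used with GRCm38; for the counting program and for versions, the sources used here give nothing. Per the labels, ERCC mix 1 went into siControl and mix 2 into siHsf1 samples. The c-MYC CUT&RUN peaks and 4 RNA samples of a Myc knockdown were not analysed here.

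Counts were tested in R 4.3.3 with edgeR 4.0.16 (robust quasi-likelihood, TMM scaling, 4 group means, 8 residual degrees of freedom), after filterByExpr with a minimum count of 10; tests are two-sided with Benjamini-Hochberg adjustment and calls at 0.05. TMM rests on the assumption that the bulk of genes stays the same. SE is the fold change divided by the square root of F. Replicate libraries differed by more than sampling noise. Alternatives were spike-in scaling on 23 ERCC transcripts of equal amount in both mixes, DESeq2 1.42.0, other filters, a replicate block, the line alone and omission of each library. Chromosomes came from RefSeq, matched for 40306 genes. Lists and members were chosen with earlier results of these data known. Named genes are Hsf1, Kat2a, Myc, all genes called in the GCN5 line, set chaperones, the 10 deepest LacZ falls above a mean log2 CPM of 2, and up to 3 members per other list by smallest p; Hspa4l, Usp39, Slc25a1, Phtf1 and Gabarap, called with spike-in scaling, and members called in the line alone were added after their values were seen.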

Additional observations from a re-analysis of the deposited data

Results flagged for a closer look

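Each result here was singled out because the response to siHsf1 differed between the lines by the interaction test (edgeR, adjusted p under 0.05); values are the GCN5-line minus the LacZ-line log2 fold change. With spike-in scaling this test called 48 genes in place of 2677, and the remaining Hsf1 mRNA and the depth differ between the lines as given above. The part of these in the differences was not tested.

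Hsf1 gave 0.41, Kat2a 0.81 and Myc 0.88. Among chaperones the values were 0.67 for Hsp90ab1, 0.66 for Hsp90aa1, 0.71 for Fkbp4, 0.44 for Hsph1, 0.47 for Ahsa1, 0.52 for Hspa8, 1.23 for Hspd1 and 0.60 for Hspe1. Among the genes called higher with siHsf1 in the GCN5 line they were -0.92 for Fgf7, 0.75 for Papd5, -0.53 for Txnip, -0.91 for Abca1 and 0.98 for Flt1.

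The genes with the deepest fall in the LacZ line had 2.37 for Reep6, 1.56 for Gm8210, 2.13 for Eda2r, 1.91 for Gm3776, 1.56 for Ube2cbp, 1.47 for Dusp9, 1.41 for Psrc1 and 1.99 for Ppl; these were chosen by that fall, so the sign is fixed in part by the choice.

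Values above 0 were 0.55 for Pes1, 0.54 for Nop10 and 0.59 for Rrp9 (ribosome biogenesis), 0.58 for Rplp1, 0.47 for Rpl18 and 0.34 for Rpl13a (ribosomal proteins), 0.70 for Rrm2 and 1.09 for Cad (nucleotide synthesis), and 0.45 for Ube2c, 0.50 for Cenpa and 0.45 for Birc5 (mitosis). Also above 0 were Ccng1, a p53 target, with 1.07, the glutathione transferases Gstm1 with 0.93 and Gsta4 with 1.13, the SAGA subunit Taf5l with 0.39 and the proteasome subunit Psmc6 with 0.33.

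Values below 0 were -1.31 for Ifi27, -1.79 for Bst2, -1.38 for Ccl5, -0.87 for Relb, -0.45 for Fosl2, -0.46 for Tpm1, -0.97 for Cnn2, -0.31 for Vcl, -0.57 for Ndufa3 and, for the DNA replication gene Lig1, -0.23.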

How the results depend on the processing

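The 20 genes called in the GCN5 line kept their sign under every alternative run, but their number of calls did not hold. It was 5 with spike-in scaling, 4 with all 92 ERCC transcripts, 35 with DESeq2 (12 higher, 23 lower; 13 of the 20 among them), 84 without the low-count filter, 262 with the line alone, and 4 to 98 when 1 library was left out. The cause was not tested. Of the 92 ERCC transcripts, only the 23 were chosen for equal amounts in both mixes, and siControl and siHsf1 samples got different mixes. Scaling on all 92 therefore also carries the difference between the mixes. HSF1-dependent genes called lower in the GCN5 line numbered 11, and 20 without the filter, 212 at an unadjusted p under 0.05, and 3 to 28 with 1 library left out. Their median of -0.037 was -0.0323 at a minimum count of 50 and -0.0417 to -0.0271 with 1 library left out. Spike-in scaling gave 735 genes lower in the LacZ line; of these 1 was called lower in the GCN5 line, with a median of -0.102, so scaling and gene set changed together. Over the same 2373 genes it gave 0 calls and a median of -0.073. It also gave 48 interaction calls, and under it the Hsf1 fold change of -0.93 no longer passed (adjusted p = 1).

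Single genes whose sign turned were near 0 or uneven between libraries. Kat2a was -0.0414 with spike-in scaling, and over the omissions of 1 GCN5-line library it ran from -0.0323 to 0.0488. Over the same omissions Hsf2 ran from -0.0159 to 0.1378, Fkbp5 from -0.7304 to 1.1749, Gm3776 from -0.3747 to 0.2739, Bag3 from -0.1289 to 0.0419, Reep6 from -0.1292 to 0.0931 and Ube2cbp from -0.3233 to 0.0335. In all, 798 values of named genes under the alternatives kept their direction and side of the threshold, 102 no longer passed, 33 passed in addition and 12 changed sign.

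Replicate numbers are shared by the labels of the groups, and whether they pair the samples could not be settled. Deviations of same-numbered libraries correlated weakly, at 0.065, 0.0085 and 0.033 in the GCN5 line, where each siHsf1 library correlated best with its own number. In the LacZ line the values were 0.0161, 0.0322 and -0.0615, and 1 siHsf1 library correlated best with its own number. With the replicate block 33 genes were called (15 higher, 18 lower), 19 of the 20 among them; with the block and spike-in scaling 8 were called. Lower depth in the GCN5 line limits the low genes most.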

Other observations

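With spike-in scaling 4 genes were called higher in the GCN5 line besides Hspa4l, which was lower, and all 4 were uneven between libraries of 1 group. Usp39, a splicing factor, was at 0.539, 1.08 and 2.21 CPM with siControl and 18.2, 1.52 and 20.6 CPM with siHsf1. Slc25a1, the mitochondrial citrate carrier, was at 0.539, 0.812 and 2.21 CPM and then 1.44, 7.83 and 12.4 CPM. Phtf1 was at 1.89, 4.33 and 2.49 CPM and then 13.7, 4.30 and 17.6 CPM. Gabarap, an autophagy protein, was at 9.71, 12.5 and 9.40 CPM and then 12.7, 66.7 and 11.001 CPM, where siHsf1 library 2 stood alone. In each of the 4 at least 1 siHsf1 library lay within or next to the range of the siControl libraries, and none passed with TMM scaling (edgeR adjusted p = 0.326, 0.541, 0.311 and 0.53 for Usp39, Slc25a1, Phtf1 and Gabarap).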
